A study of Mus musculus with 8 samples.

Results

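The genes described here are Trp53, which encodes the transcription factor p53, its ubiquitin ligase gene Mdm2, and 8 genes that p53 induces under stress: Cdkn1a, Aen, Trp53inp1, Ccng1, Zmat3, Sesn1, Sesn2 and Gadd45a. These 10 genes were chosen by name, out of 35087 named genes in the deposited tables. Each has a row in every table, and each passed the filter on low counts that left 15102 genes for testing. The samples were granulosa cells, the somatic cells around the oocyte, cut by laser microdissection from follicles in mouse ovary sections. Every mouse carried loxP-flanked Hif1a alleles (Hif1aflox/flox) and received 100 mg/kg tamoxifen daily for 5 days, starting at 3 weeks old. Ovaries were collected 7 days after dosing ended. The conditional knockout group (cKO, n = 2 libraries) also carried Foxl2-CreERT2, a Cre recombinase that tamoxifen activates and the granulosa cell gene Foxl2 drives. The group called WT (n = 6 libraries) had no Cre, so WT here means unrecombined floxed mice treated with the same drug. The genotype label of the cKO samples reads knockdown, and the library names begin with cKO for all 8 samples; groups follow the titles, and the doubt about the WT labels bears on every comparison here. No label links a library to an animal, so libraries may share one, and p-values measure only the spread between these libraries.

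p53 is kept scarce in unstressed cells because Mdm2 marks it for degradation. DNA damage, hypoxia and metabolic stress stabilise the protein, which then switches on genes that stop the cell cycle, repair DNA, restrain growth signalling or favour cell death, and also switches on Mdm2 itself, closing a feedback loop. Much of this control acts on the protein, so Trp53 mRNA alone does not measure p53 activity, and the mRNA of its targets is the usual readout. In ovarian follicles, members of the p53 family are known for their part in the death of damaged oocytes.

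p53 binds a 10-base consensus, usually as adjacent copies, each with a core of CNNG in which both middle bases are A or T. RefSeq start site windows (GRCm38.p6, 250 bases before to 50 bases after a start site) matched 8 of the 10 genes in 11 windows, while Trp53inp1 and Zmat3 had no entry. An exact match to the 10-base consensus lay in 8 of the 11 windows, from 7 of the 8 genes. Of all 32851 windows, 8.36% hold one. The consensus is its own reverse complement and so reads the same on both strands. Pairs of cores with 6 bases between them, the spacing of adjacent copies, lay in 4 of the 11 windows, against 7.22% of all windows. Those windows belong to Cdkn1a, Aen and Trp53. The Aen windows overlap and share the same site, which counts in each. The matches overlap, because a consensus copy can be part of a core pair. The site of each gene is shown with its surroundings, the consensus or the core pair in capitals, so that the letters can be compared between the genes. These are matches of letters in start site windows only. They do not show binding in these cells, and elements outside the windows, such as those in introns, were not searched.
Cdkn1a, chr17:29090903-29090972, plus strand: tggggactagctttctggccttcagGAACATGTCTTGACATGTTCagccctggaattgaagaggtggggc
Aen, chr7:78895912-78895981, plus strand: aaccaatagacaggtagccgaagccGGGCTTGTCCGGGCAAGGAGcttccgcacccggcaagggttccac
Trp53, chr11:69580259-69580328, plus strand: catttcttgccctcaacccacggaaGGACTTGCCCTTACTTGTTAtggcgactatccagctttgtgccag
Mdm2, chr10:117710910-117710969, minus strand: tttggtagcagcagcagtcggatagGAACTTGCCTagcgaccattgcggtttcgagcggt
Ccng1, chr11:40755437-40755496, minus strand: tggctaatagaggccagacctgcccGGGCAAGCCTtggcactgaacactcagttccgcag
Sesn1, chr10:41887241-41887300, plus strand: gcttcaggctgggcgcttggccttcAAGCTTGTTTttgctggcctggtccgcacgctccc
Gadd45a, chr6:67037413-67037472, minus strand: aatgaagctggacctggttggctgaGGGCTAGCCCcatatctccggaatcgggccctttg
The 20-base element of Cdkn1a departed from the double consensus at 1 base, and those of Aen and Trp53 each departed at 3. The Cdkn1a element begins 51 bases before the upstream start site. An exact 10-base match also lies close before it, left in lower case near the start of the printed stretch, and the window at the downstream start site of Cdkn1a held no match. Neither did the Sesn2 window or the window at the upstream start site of Sesn1.

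Depth limits what these genes can show. The libraries held from 651656 to 4719468 reads on named genes, and reads on the 10 genes together ran from 183 in cKO replicate 2 to 2771 in WT replicate 6. A number of 3 reads, the most that a count of 0 allows, correspond to between 0.655 and 4.10 CPM (read counts scaled to a common library size) depending on the library, for counting error only. For Hif1a, the targeted gene, cKO libraries 1 and 2 stood at 22.3 and 13.7 CPM, below the WT range of 35.5 to 106 CPM. Its log2 fold change of -1.84 ± 0.58 (SE) did not pass (adjusted p = 0.369, edgeR). The lowest WT libraries were replicates 1 and 2, at 37.9 and 35.5 CPM. Among the libraries numbered 1 and 2 alone, a restriction chosen after seeing the data, the log2 fold change of Hif1a was -0.97. Granulosa markers were present as labelled: all 14 listed, Foxl2, Fshr and Amh among them, had reads in every library. They summed to 6044 and 2254 CPM in cKO libraries 1 and 2 and from 4170 to 64901 CPM in WT. Of the 14, 12 were fitted lower and 2 higher in cKO, with a median log2 fold change of -1.54, where 52.7% of all genes were fitted lower. At an unadjusted p under 0.05 (edgeR), 7 were lower and 1 higher, where 8.89% and 3.4% of all genes were. All 9 stroma markers were fitted higher in cKO, with a median of 0.68. Of the oocyte markers 9 were tested, and all 9 were fitted lower, with a median of -3.40, 1 of them without a read in cKO. The 13 mitochondrial genome genes were all fitted higher, with a median of 1.34. Directions were mixed for endothelial (2 lower, 6 higher), theca and luteal (3 lower, 4 higher) and blood and immune markers (4 lower, 5 higher). Oocyte markers (10 listed) summed to 52.3 and 30.1 CPM in cKO, and in WT to 7.02, 12.1 and 18.9 CPM in replicates 5, 3 and 4 but 170, 520 and 1811 CPM in replicates 1, 2 and 6. Stroma markers (9 listed) ran from 477 to 1870 CPM in cKO and from 37.97 to 1365 CPM in WT, endothelial markers (8 listed) from 262 to 278 CPM and from 72.4 to 387 CPM, theca and luteal markers (7 listed) from 186 to 346 CPM and from 95.1 to 519 CPM, and blood and immune markers (10 listed) from 61.5 to 272 CPM and from 51.9 to 226 CPM. No read was found for the oocyte markers Dppa3 and Figla and the blood and immune markers Adgre1, Alas2 and C1qb in cKO replicate 1, or for the oocyte markers Bmp15, Dppa3 and Zp2 in cKO replicate 2. In single WT libraries as many as 5 oocyte, 4 endothelial, 4 blood and immune and 3 theca and luteal markers had none. The 13 mitochondrial genome genes took 8.87% and 10.5% of reads in cKO and from 1.42% to 3.65% in WT. The part of these differences in the results on p53 genes was not tested, and in bulk samples fewer cells of a type cannot be told apart from less RNA per cell.

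None of the 10 genes passed the threshold for a difference between cKO and WT in the test across all genes. Of the 10, 7 had a lower and 3 a higher fitted level in cKO, Zmat3 among the latter by only 0.00181 on the log2 scale. The median of the 10 log2 fold changes was -0.67, beside -0.08 over all 15102 genes, of which 52.7% were fitted lower. With edgeR's quasi-likelihood test and Benjamini-Hochberg adjustment, 0 of the 10 passed an adjusted p of 0.05, where 0% of all genes did. At an unadjusted p under 0.05 there were also 0 of 10, where 12.3% of all genes fell under that line. In 0 of the 10 did both cKO libraries lie on the same side of the WT range, where 6.41% of all genes lay entirely below and 6.02% entirely above. DESeq2 gave an adjusted p to 7 of the 10 and called 0, against 2.73% of the genes to which it gave one. The adjusted p of the 10 genes in edgeR ran from 0.453 for Trp53inp1 to 0.999 for Zmat3.

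**Figure D1:**
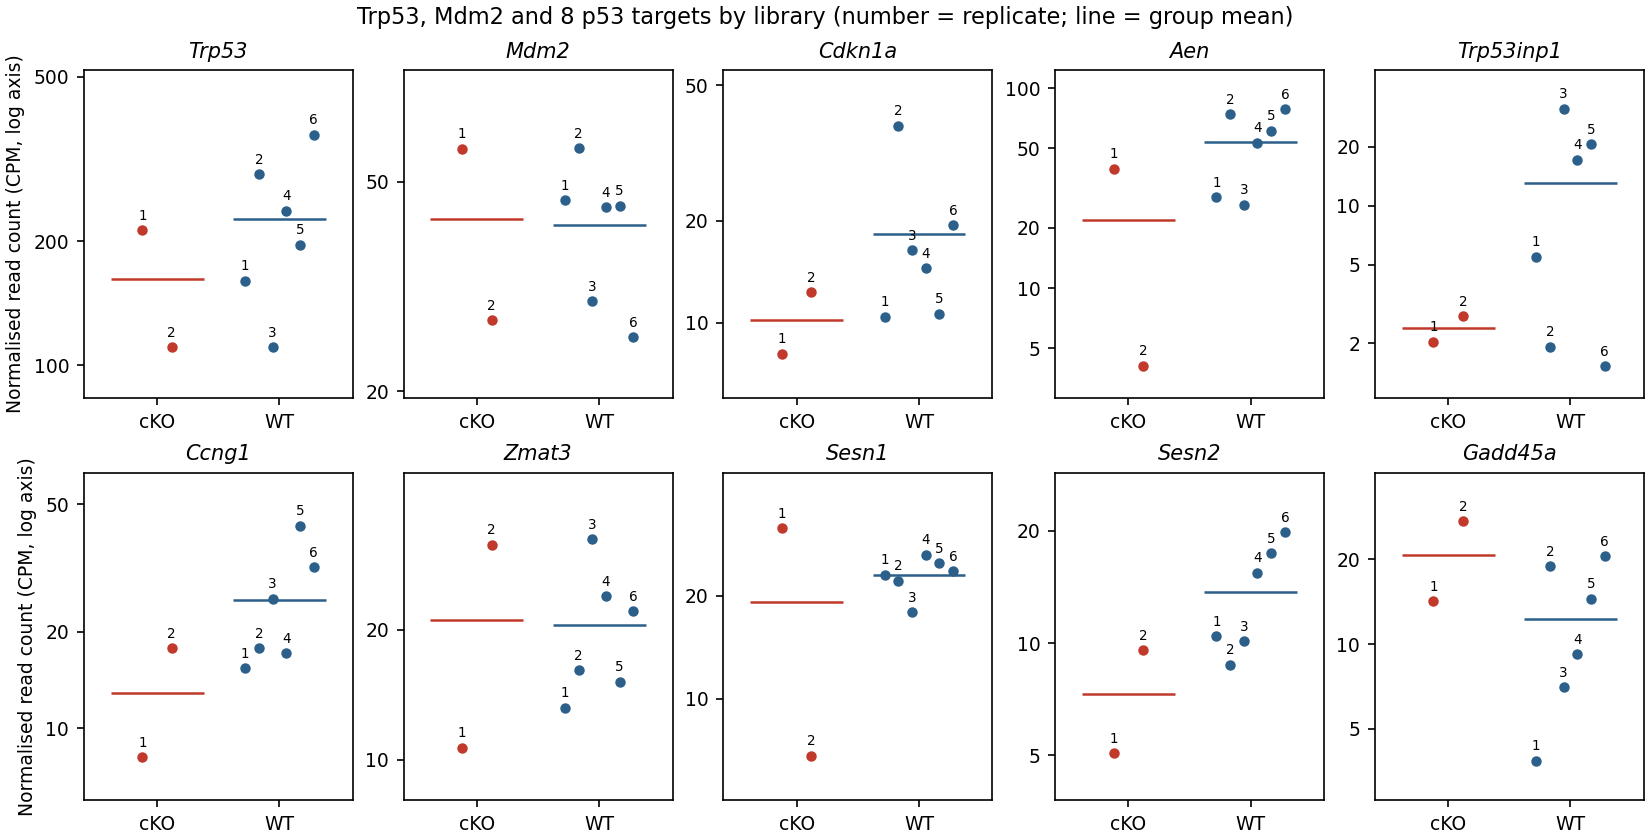
Normalised read count (CPM, log axis) of the 10 genes in each library, cKO in red (n = 2) and WT in blue (n = 6), with replicate numbers beside the points and lines at the group means. In no panel do both cKO libraries lie on the same side of all WT libraries, and the cKO libraries differ most from each other for Aen and Sesn1, the latter with 1 above and 1 below the WT range.

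Trp53 itself (chromosome 11, 69580359 to 69591873, plus strand) was at 213 CPM in cKO replicate 1 and 110.6 CPM in cKO replicate 2. The WT libraries, in the order of their numbers, were at 160, 291, 110.7, 237, 196 and 362 CPM. The first cKO library lay inside the WT range, and the second lay at its lower edge, level with WT replicate 3. The group means were 162 ± 72.1 CPM (SD, n = 2) and 226 ± 90.9 CPM (SD, n = 6), and the log2 fold change was -0.48 with a 95% confidence interval from -1.58 to 0.62. Leaving out cKO replicate 1 gave -1.03, leaving out cKO replicate 2 gave -0.14, and leaving out WT replicate 6 gave -0.22. The highest WT libraries for Trp53, replicates 6 and 2, were also those with the largest sums of oocyte markers, at 1811 and 520 CPM; whether this bears on their Trp53 level was not tested. Trp53-ps, the processed pseudogene copy of Trp53, was listed at 0 reads in all 8 libraries. The neighbouring gene Wrap53 lies upstream on the minus strand, head to head with Trp53, with 103 bases between the annotated genes and no exon overlap in the annotation used here.

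Mdm2 (chromosome 10, 117688875 to 117710758, minus strand), which encodes the ligase that degrades p53, had 57.9 and 27.3 CPM in cKO, and 46.2, 57.95, 29.6, 44.7, 45.1 and 25.3 CPM in WT. The cKO libraries spanned nearly the whole WT range. This gave a log2 fold change of 0.06, with a 95% confidence interval from -0.95 to 1.07, and it turned to -0.60 without cKO replicate 1. Set against Trp53 in the same library, the ratio of Mdm2 to Trp53 in TPM (a transcript level corrected for length) was 0.278 and 0.170 in cKO and from 0.0678 to 0.183 in WT. In TPM it was highest in cKO replicate 1, while cKO replicate 2 lay inside the WT range. The same ratio in CPM, which is not corrected for length, was 0.272 and 0.247 in cKO and from 0.0699 to 0.288 in WT, so both cKO libraries lay inside the WT range and WT replicate 1 was highest.

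Among targets that act on the cell cycle, Cdkn1a (chromosome 17, 29090976 to 29100727, plus strand) encodes the cyclin-dependent kinase inhibitor p21. It had 8.12 and 12.3 CPM in cKO (16 and 9 reads), and 10.4, 37.996, 16.4, 14.5, 10.6 and 19.4 CPM in WT. One cKO library lay below all WT libraries and the other inside their range, and WT replicate 2 stood well above the other WT libraries. Its fitted difference on the log2 scale was -0.86 ± 0.71 (SE), with a 95% confidence interval from -2.38 to 0.66. It was -0.51 without WT replicate 2 and -0.57 without cKO replicate 1, -1.20 without cKO replicate 2, and -2.46 with the count of detected genes as a covariate.

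Ccng1 (chromosome 11, 40748552 to 40755311, minus strand) encodes cyclin G1, a partner of the phosphatase that acts on Mdm2. It had 8.12 and 17.8 CPM in cKO (16 and 13 reads), and 15.4, 17.8, 25.3, 17.2, 42.8 and 31.9 CPM in WT. Here too cKO replicate 1 was the lowest of all libraries, and cKO replicate 2 was level with WT replicates 2 and 4. Its fitted difference was -0.999 ± 0.64 (SE) on the log2 scale, which became -1.68 when cKO replicate 2 was left out and -0.50 when cKO replicate 1 was, and -0.64 without WT replicate 5.

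Gadd45a (chromosome 6, 67035096 to 67037457, minus strand) encodes a protein that binds PCNA and p21 and takes part in growth arrest and stress kinase signalling. It had 14.2 and 27.3 CPM in cKO (28 and 20 reads), and 3.85, 18.9, 7.02, 9.19, 14.5 and 20.5 CPM in WT. It was the one gene of the 10 fitted higher in cKO by more than 0.1 on the log2 scale, at 0.72 ± 0.71 (SE) with a 95% confidence interval from -0.79 to 2.24, and cKO replicate 1 lay inside the WT range. Its value was 0.15 when cKO replicate 2 was left out and 1.14 when cKO replicate 1 was. Gadd45a exons overlap those of E230016M11Rik, and Cdkn1a exons overlap those of AC167363.2. In an unstranded library, reads that lie within the shared bases cannot be assigned to a partner by strand. How many reads lie there was not determined.

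Among targets linked to cell death and autophagy, Aen (chromosome 7, 78895854 to 78911209, plus strand) encodes an exonuclease that enhances apoptosis. It had 39.6 and 4.10 CPM in cKO (78 and about 3 reads), and 28.6, 74.4, 26.1, 53.4, 61.4 and 78.6 CPM in WT. The cKO libraries differed from each other 9.66-fold, where the median gene of similar level differed 1.71-fold. The fitted log2 difference was -1.22 ± 0.70 (SE), with a 95% confidence interval from -2.72 to 0.27. Leaving out cKO replicate 2 gave -0.49, and leaving out cKO replicate 1 gave -3.70, a size that rests on about 3 reads. Zmat3 (chromosome 3, 32334792 to 32366014, minus strand), an RNA-binding zinc finger gene with growth-suppressing activity, had 10.7 and 31.4 CPM in cKO and from 13.2 to 32.4 CPM in WT. Its cKO libraries sat near the bottom and the top of all 8, which gave a log2 fold change of 0.00181. Leaving out cKO replicate 2 gave -0.99, and leaving out cKO replicate 1 gave 0.62.

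Trp53inp1 (chromosome 4, 11156431 to 11174379, plus strand) encodes a stress protein that promotes p53 phosphorylation and takes part in autophagy. It had the most negative fitted value of the 10 genes. Its level was 2.03 and 2.73 CPM in cKO (4 and 2 reads), against 5.49, 1.91, 31.2, 17.2, 20.6 and 1.53 CPM in the WT libraries in the order of their numbers. The WT libraries thus fell apart into replicates 3, 4 and 5 at 17.2 CPM or more and replicates 1, 2 and 6 at 5.49 CPM or less, and both cKO libraries lay among the latter. WT replicates 3, 4 and 5 were also the libraries with the smallest sums of oocyte markers, at 18.9 CPM or less, whereas the cKO libraries, low in Trp53inp1, had 30.1 and 52.3 CPM; the part of this in the Trp53inp1 values was not tested. The log2 fold change was -2.46 ± 1.31 (SE), with a 95% confidence interval from -5.28 to 0.36. Among the libraries numbered 1 and 2 alone it was -0.62. This restriction was chosen with earlier results known, in which granulosa genes set these libraries apart from WT replicates 3 to 6.

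The sestrins restrain the growth kinase complex mTORC1 and oxidative stress, Sesn2 being induced by amino acid shortage as well as by p53. Sesn1 (chromosome 10, 41809935 to 41908424, plus strand) had 31.5 and 6.83 CPM in cKO (62 and 5 reads), and 23.1, 22.1, 17.9, 26.4, 24.9 and 23.6 CPM in WT. One cKO library lay above and the other below the entire WT range. The WT libraries were close together, with a coefficient of variation of 12.5%, and only 0.849% of the 9427 genes with a WT mean between 10 and 300 CPM varied less. The log2 fold change was -0.21, with a 95% confidence interval from -1.46 to 1.03, which moved to 0.39 when cKO replicate 2 was left out and to -1.75 when cKO replicate 1 was. Sesn2 (chromosome 4, 132492032 to 132510501, minus strand) had 5.07 and 9.56 CPM in cKO (10 and 7 reads), and 10.4, 8.75, 10.1, 15.5, 17.4 and 19.9 CPM in WT. WT replicate 2 was the only WT library below cKO replicate 2. The log2 fold change was -0.94 ± 0.73 (SE), with a 95% confidence interval from -2.52 to 0.63. Leaving out cKO replicate 1 gave -0.52, and leaving out cKO replicate 2 gave -1.49.

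The 10 genes varied to different degrees within WT. The coefficient of variation over the 6 WT libraries was 92.2% for Trp53inp1, which varied more than 95.4% of the genes of similar level, and 56.3% for Cdkn1a and 54.4% for Gadd45a. It was from 28.9% to 42.6% for Mdm2, Sesn2, Zmat3, Trp53, Aen and Ccng1, beside a median of 42.4% over genes of similar level. The highest WT library was 20.4 times the lowest for Trp53inp1 and 1.47 times for Sesn1.

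**Figure D2:**
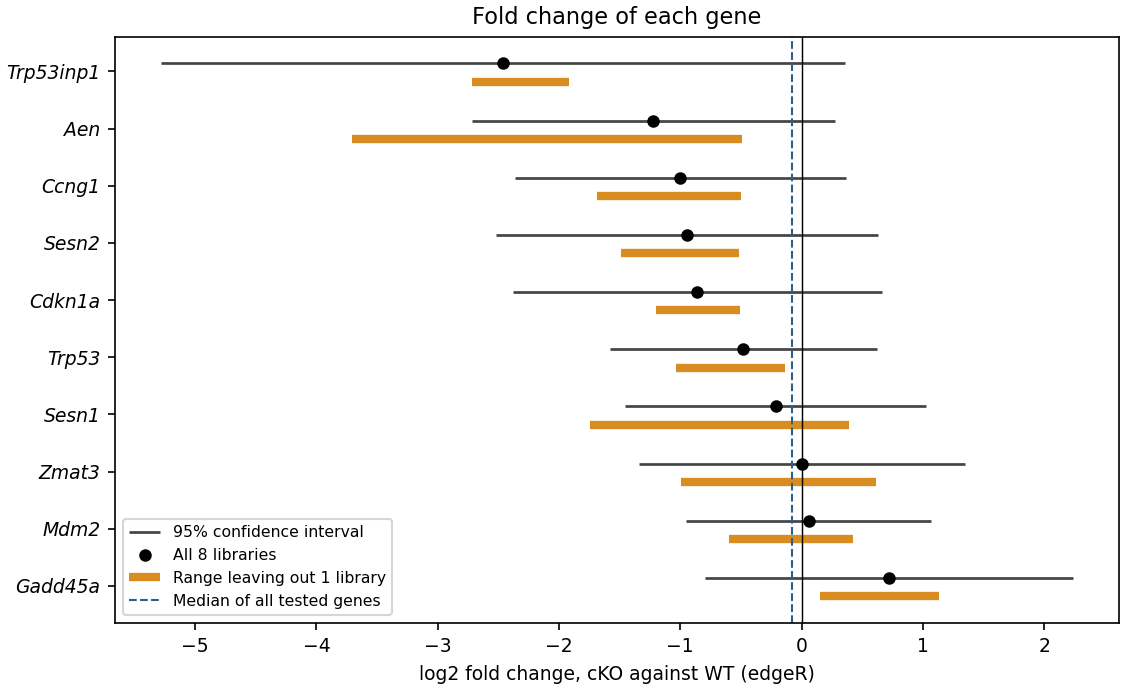
log2 fold change of cKO against WT for each gene (black points) with its 95% confidence interval, and in orange the range of values when each library is left out in turn; the dashed line is the median of all tested genes. All 10 intervals include 0, and the orange ranges of Mdm2, Zmat3 and Sesn1 lie on both sides of 0.

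Levels of different genes can be compared only per length, for which the deposited TPM were used. Trp53 had the highest TPM of the 10 genes in each of the 8 libraries, with a WT median of 115 TPM (74.2 to 206 TPM) and 99.7 and 62.2 TPM in cKO. It made up from 42.2% to 61.9% of the summed TPM of the 10 genes. Aen followed with a WT median of 26.2 TPM, then Cdkn1a with 19.96 TPM, Mdm2 with 14.1 TPM and Gadd45a with 12.5 TPM. The WT range of Trp53 lay wholly above that of Aen (19.7 to 35.6 TPM), but those of Aen, Cdkn1a (10.5 to 35.5 TPM), Mdm2 (12.2 to 17.4 TPM) and Gadd45a (3.95 to 22.05 TPM) overlapped from each gene to the next. Sesn1 (7.89 TPM) and Ccng1 (6.67 TPM) came next and overlapped, and Sesn2 (3.49 TPM), Zmat3 (2.44 TPM) and Trp53inp1 (2.30 TPM) were lowest, again with overlapping ranges. By the mean of the cKO libraries the order kept Trp53 first and Trp53inp1 last, with Mdm2 second at 19.1 TPM, where its libraries had 27.7 and 10.6 TPM.

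**Figure D3:**
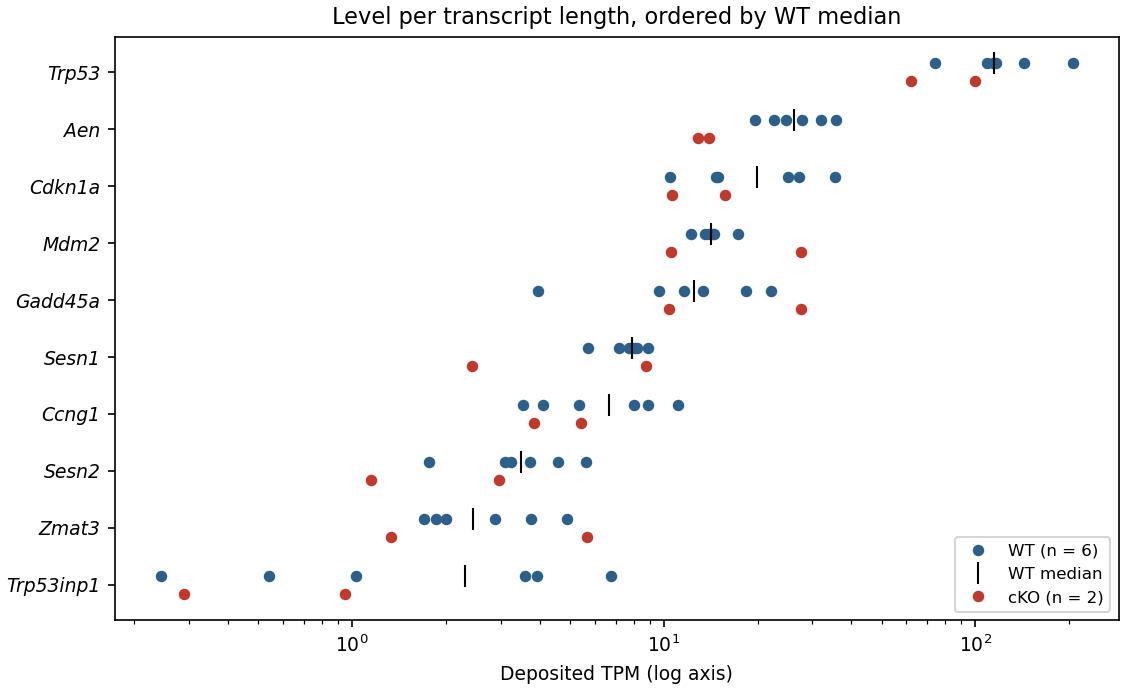
Deposited TPM (log axis) of each gene in the WT (blue, n = 6) and cKO (red, n = 2) libraries, ordered from the highest to the lowest WT median (black tick). Trp53 stands above the other genes in both groups, and Trp53inp1 has the widest spread in WT, from 0.243 to 6.77 TPM.

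In TPM, Aen differed from its picture in CPM. Its cKO libraries had 12.8 and 13.96 TPM, both below the lowest WT library. The TPM divide reads by the length of the transcripts to which they were assigned, and the effective length that the deposited TPM imply for Aen was 327 bases in cKO replicate 2, where about 3 reads went to short transcripts, against 1127 to 2034 bases in WT and 2264 bases, the longest, in cKO replicate 1. For Trp53 this length was 1345 to 1785 bases and for Sesn2, which has 1 annotated transcript, 3241 to 3282 bases. For Mdm2 it was 1530 bases in cKO replicate 1 and 1671 bases in WT replicate 6, and 2268 bases or more elsewhere. For Ccng1 it was 1551 bases in cKO replicate 1 and at least 2805 bases in the others. In those libraries the same number of reads thus gave a higher TPM.

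Genes that act on p53 were examined as a list of 16, of which 13 were tested and Trp63, Trp73 and Cdkn2a did not pass the filter. Of the 13, 5 were fitted lower and 8 higher in cKO, around a median of 0.11 on the log2 scale. None had an adjusted p under 0.05, and 0 had an unadjusted p under 0.05, where 12.3% of all genes did. Chek2, the checkpoint kinase that phosphorylates p53 after DNA breaks, had 31.0 and 36.9 CPM in cKO and from 10.6 to 24.7 CPM in WT, with no overlap (log2 fold change 0.94 ± 0.49, SE). Kat5, an acetyltransferase gene that acts on ATM and p53, was likewise higher without overlap, at 51.3 and 45.1 CPM against 20.7 to 41.5 CPM. It was singled out after its values were seen. These 2 of the 13 lay entirely above WT, where 6.02% of all genes did, and 0 lay entirely below, where 6.41% did. Mdm4, whose product blocks p53 beside Mdm2, was at 0.69 ± 0.41, the kinase gene Hipk2 at -0.81 ± 0.52, and Cop1, another p53 ubiquitin ligase gene, at -0.84 ± 0.46. Without cKO replicate 1 these values were 0.34 for Mdm4, -1.27 for Hipk2 and -0.50 for Cop1, and without cKO replicate 2 they were -0.53 for Hipk2 and -1.29 for Cop1.

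Other textbook targets of p53 made a list of 36, of which 32 were tested. The death genes Bbc3 and Pmaip1, Rprm and Dram1 did not pass the filter. Of the 32, 17 were fitted lower and 15 higher, and their log2 fold changes had a median of -0.11. None had an adjusted p under 0.05. An unadjusted p under 0.05 was found for 2 of the 32, where 12.3% of all genes had one in either direction. Both were higher in cKO, where 3.4% of all genes were, and 0 were lower, where 8.89% were. The first was Sfn, the epithelial cell cycle inhibitor 14-3-3 sigma, at 25.9 and 2.73 CPM in cKO and from 0 to 5.07 CPM in WT (log2 fold change 3.26 ± 1.299, SE, and 0.85 without cKO replicate 1). The second was Ercc5, a nuclease gene of nucleotide excision repair, at 132 and 116 CPM against 29.4 to 88.1 CPM, with no overlap (1.05 ± 0.44, SE). Rps27l, a ribosomal protein paralogue, had 205 and 15.0 CPM in cKO and from 85.2 to 475 CPM in WT (-1.50 ± 0.82, SE), which became -0.67 when cKO replicate 2 was left out and -4.39 when cKO replicate 1 was. Trp53i11 was at -1.10 ± 0.62. Ei24 lay lower in cKO with no overlap, at 44.1 and 31.4 CPM against 45.4 to 70.2 CPM (log2 fold change -0.55, and -0.82 without cKO replicate 1). Gadd45g lay higher, at 116.2 and 105.2 CPM against 15.7 to 104.97 CPM, and like Ei24 was picked after its values were seen. WT replicates 1 and 2 had 100.0 and 104.97 CPM of Gadd45g, and the other WT libraries 46.9 CPM or less. Its log2 fold change was 1.07, and 0.15 among the libraries numbered 1 and 2. Of the 32, 1 lay entirely below WT and 2 entirely above, where 6.41% and 6.02% of all genes did. With the count of detected genes as a covariate, Ercc5, Gadd45g, Trp53i11 and Ei24 turned direction, to -0.20, -0.34, 0.21 and 0.11.

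Cell cycle genes that p53 lowers through p21 made a list of 20, all tested. Of these 14 were fitted lower and 6 higher in cKO, around a median of -0.49 on the log2 scale. None had an adjusted p under 0.05 in edgeR. An unadjusted p under 0.05 was found for 3 of the 20, where 12.3% of all genes had one in either direction. All 3 were lower, where 8.89% of all genes were. All 3 also lay entirely below WT, where 6.41% of all genes did. Ccnb2, the gene of the mitotic cyclin B2, had 32.0 and 24.6 CPM in cKO and from 39.0 to 205 CPM in WT (log2 fold change -2.30 ± 0.62, SE). Its adjusted p was 0.369 in edgeR and 0.0162 in DESeq2. Ccna2, the gene of cyclin A2, had 58.9 and 31.4 CPM against 68.1 to 199 CPM (-1.49 ± 0.51, SE), and Aurka, a mitotic kinase gene picked after its values were seen, had 28.9 and 10.9 CPM against 30.0 to 74.1 CPM (-1.50 ± 0.53, SE, and -2.41 without cKO replicate 1). Ccne2, the gene of a cyclin of DNA replication entry, was at 1.18 ± 0.62, and Bub1, of the spindle checkpoint, at 0.56 ± 0.44. Without cKO replicate 1, Ccne2 was at 0.60 and Bub1 at 0.0041, and without cKO replicate 2 Bub1 was at 0.90. Cdkn1a, the p21 gene itself, also had a lower fitted level in cKO, at -0.86 ± 0.71.

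Genes of the integrated stress response, which shares Sesn2 and Gadd45a with p53, made a list of 16, of which 14 were tested and Chac1 and Atf3 did not pass the filter. They divided evenly into 7 lower and 7 higher, around a median of -0.07 on the log2 scale. None had an adjusted p under 0.05, and 0 had an unadjusted p under 0.05, where 12.3% of all genes did. Ddit4, an mTORC1 inhibitor gene, had 8.12 and 2.73 CPM in cKO, against 2.20, 4.10, 30.8, 40.9, 22.9 and 9.17 CPM in the WT libraries in the order of their numbers (log2 fold change -1.67 ± 1.08, SE). As for Trp53inp1, its highest libraries were WT replicates 3, 4 and 5, and it turned to 0.84 among the libraries numbered 1 and 2. Phgdh, an enzyme gene of serine synthesis, was at -0.70 ± 0.62, and leaving out cKO replicate 1 or 2 gave -2.16 or -0.057. Also tested were the cystine transporter gene Slc7a11 at 1.09 ± 0.77, and Ddit3, the gene of the transcription factor CHOP, at 0.39 ± 0.68. Slc7a11 turned to -0.32 when cKO replicate 2 was left out, and Ddit3 to -0.19 when cKO replicate 1 was.

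**Figure D4:**
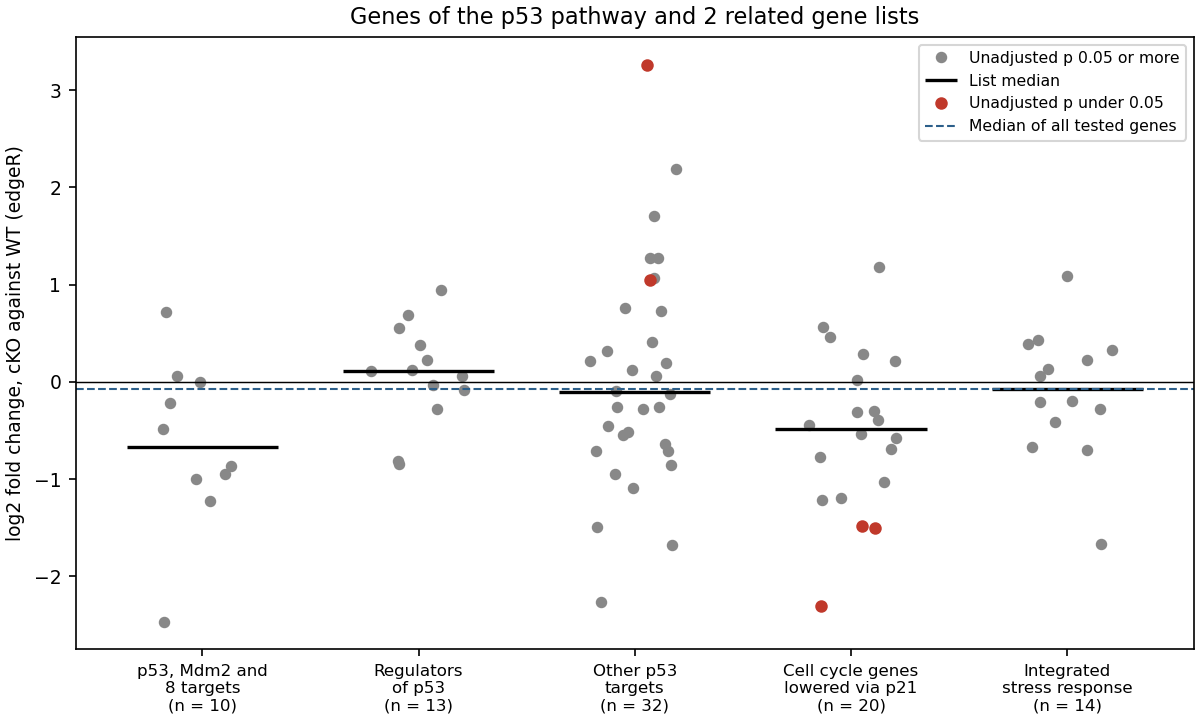
log2 fold change of cKO against WT for the tested genes of each list (points, red where the unadjusted p was under 0.05), with the list median (black line) and the median of all tested genes (dashed line). The red points are 2 genes above 0 among other p53 targets and 3 below 0 among the cell cycle genes.

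The genes whose profile over the 8 libraries was most like that of Trp53, by the root mean square difference in centred log2 CPM among 10018 other genes with a mean of at least 10 CPM, were Ccnd2 (0.187), Tmem65 (0.191) and Ctps2 (0.201). Ccnd2, which encodes cyclin D2, had 1902 and 855 CPM in cKO and from 1047 to 2910 CPM in WT. For Cdkn1a they were Lin37 (0.297), Ahcy (0.309) and Crat (0.320). The libraries share their depth and scaling across all genes, and the differences are given as a description.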

How the data were processed

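Granulosa cell RNA was amplified with a Smart-seq2 type protocol and sequenced after Tn5 library construction, per the labels' protocols; this does not mark strand. The authors deposited 1 table per library with estimated counts, TPM and transcript lengths; HISAT2, Salmon and mm10 are named in the submitters' processing notes, with no versions. For the annotation, none is given in the sources used here. Of 36635 rows, 1548 carry a transcript identifier only, held 0.435% to 0.739% of each library's reads, and were excluded. The deposited gene lengths did not match the deposited TPM for genes with several transcripts, so lengths were taken as those the TPM imply, scaled on single-transcript rows.

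Estimated counts were rounded, filtered with filterByExpr (minimum count 10, minimum total 15), scaled by TMM and tested with edgeR 4.0.16 (glmQLFit and glmQLFTest, group only, 8 libraries) in R 4.3.3, with Benjamini-Hochberg adjustment over 15102 genes and a threshold of 0.05. CPM use the TMM-scaled library sizes. Standard errors come from the F statistic and intervals (95%) from the t distribution of the fit. The fit was also run on simulated data, and no measure of its power is given here. All pairs of libraries differed by more than sampling noise (chi-square per degree of freedom from 13.4 to 103 over 28 pairs). Named genes are the 10 members, the 2 with the smallest p in each direction of each pathway list, and the 3 most like Trp53 or Cdkn1a. The members, lists and tests were chosen with earlier results of these data known. Gene coordinates are from GENCODE M21 (GRCm38). Alternatives used DESeq2 1.42.0 and limma 3.58.1, among others. Reads carry no molecular identifiers, so limits for a count of 0 (3 reads) cover counting error only.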

Additional observations from a re-analysis of the deposited data

Results flagged for a closer look

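Of 31 genes examined in the 6 WT libraries, 1 had a library standing apart by Dixon's criterion. Cdkn1a had 37.996 CPM in WT replicate 2, and the next highest WT library had 19.4 CPM, so the gap was 0.674 of the whole WT range, above the critical value of 0.625. Chance alone sets about 1 in 20 groups apart in this way. The flag is for CPM. In TPM, WT replicate 2 was again highest for Cdkn1a, at 35.5 TPM, but less far apart. WT replicate 6 came next at 27.2 TPM, and the lowest WT library had 10.5 TPM. WT replicate 2 also had 74.4 CPM of Aen, 291 CPM of Trp53 and 18.9 CPM of Gadd45a, each the second highest value in WT. Its Mdm2 level of 57.95 CPM was the highest in WT. The other members were low there: Sesn2, at 8.75 CPM, was the lowest in WT. Trp53inp1 (1.91 CPM), Sesn1 (22.1 CPM), Ccng1 (17.8 CPM) and Zmat3 (16.1 CPM) lay below their WT means.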

How the results depend on the processing

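The count of the 10 genes past an adjusted p of 0.05 stayed at 0 under all 18 alternatives, and 7 or 8 were fitted lower under each. Their median log2 fold change ran from -0.77 to -0.45 when 1 library was left out, and was -0.35 with the libraries numbered 1 and 2 alone, an alternative chosen after seeing the data. The count under an unadjusted p of 0.05, 0 as reported, was 2 with no filter (Aen and Trp53inp1), 1 with limma on log2(TPM + 1) (Aen), and from 0 to 1 when 1 library was left out: Aen without cKO replicate 1, and Trp53inp1 without WT replicate 2 or 6. Mdm2 ran from -0.60 (without cKO replicate 1) to 0.43 (without cKO replicate 2), and turned to -0.36 with the replicate block and to -0.23 in the libraries numbered 1 and 2. Zmat3 turned to -0.00512 with no filter, -0.35 with limma-voom, -1.37 with detected genes as a covariate, and -0.0996 and -0.058 when WT replicate 1 or 2 was left out. Leaving out each library in turn, it ran from -0.99 (without cKO replicate 2) to 0.62 (without cKO replicate 1). Sesn1 turned to 0.88 with that covariate, and ran from -1.75 (without cKO replicate 1) to 0.39 (without cKO replicate 2). The causes were not tested.

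With the covariate, Trp53i11 turned to 0.21, Ercc5 to -0.20, Slc7a11 to -1.13, Ddit3 to -0.061, Ei24 to 0.11 and Gadd45g to -0.34. The same direction at over 1.5 times smaller size was found for Hif1a (-0.32), Trp53 (-0.28), Aen (-0.25), Ccng1 (-0.56), Sesn2 (-0.61), Gadd45a (0.18), Chek2 (0.16), Mdm4 (0.30), Hipk2 (-0.38), Ccna2 (-0.93), Aurka (-0.61), Ccne2 (0.18), Phgdh (-0.056), Rps27l (-0.45) and Ddit4 (-0.23), and at a larger one for Cdkn1a (-2.46) and Mdm2 (0.74). This covariate itself separates the groups (at most 12847 genes in cKO, at least 13597 in WT). Slc7a11 ran from -0.32 (without cKO replicate 2) to 1.82 (without cKO replicate 1), and Ddit3 from -0.19 (without cKO replicate 1) to 0.74 (without cKO replicate 2). Hipk2 turned to 0.032 in the libraries numbered 1 and 2, and Ddit4 to 0.84 there and to 0.75 with the replicate block.

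Over all genes, the calls (0) became 478 with no filter, 235 with DESeq2, 5 with limma on log2(TPM + 1) and 1 with the replicate block. Genes under an unadjusted p of 0.05 (1855) became 3486 with no filter, 490 with the covariate, 376 in the libraries numbered 1 and 2 and 179 with the replicate block, and ran from 822 (without cKO replicate 2) to 3090 (without WT replicate 1). Among other p53 targets the unadjusted count (2) became 5 with no filter, 8 with limma-voom, 4 with limma on log2(TPM + 1), 1 in the libraries numbered 1 and 2, and 0 with the replicate block or the covariate, and ran from 1 (without cKO replicate 2 or WT replicate 4) to 5 (without WT replicate 1). Among the cell cycle genes it (3) became 6 with no filter, 5 with limma-voom and with limma on log2(TPM + 1), 1 in the libraries numbered 1 and 2, and 0 with the replicate block or the covariate, and ran from 1 (without cKO replicate 2) to 6 (without WT replicate 1). Among them 1 gene, Ccnb2, was called with no filter (log2 fold change -2.35) and with DESeq2 (-2.18). Among regulators of p53 the unadjusted count (0) was 1 with limma-voom and with limma on log2(TPM + 1), and among integrated stress response genes it ran from 0 to 1 (without cKO replicate 1). DESeq2's size factors moved the median of all genes from -0.08 to 0.05. Samples of both groups share the numbers 1 and 2, and their deviations from the group means did not go together (correlations of -0.26 and -0.16). With 2 cKO libraries, the deviations of 1 mirror those of the other. The check therefore cannot tell whether libraries of the same number share more than that number.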
